A study of Mus musculus with 5 samples.

Results

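Chondrocytes that expressed both Tgfbi and Mgp were examined in single-cell RNA-seq libraries of knee growth plate cartilage from 5 littermate mouse pups. The members were chosen on measured values. After a filter that kept cells with 200 to 6000 detected genes and at most 10% mitochondrial UMIs (unique molecular identifiers, each standing for 1 captured RNA molecule), a member had at least 300 Col2a1 UMIs per 10,000 UMIs of the cell, at least 3 Tgfbi UMIs and at least 20 Mgp UMIs per 10,000. It also had fewer than 50 Prg4 and fewer than 10 Col10a1 UMIs per 10,000, fewer than 3 UMIs of Mki67 and Top2a together and fewer than 3 Ihh UMIs, which set aside articular surface, hypertrophic, cycling and prehypertrophic cells. The rule found 3560 members among 82516 filtered cells, or 4.31%, and 11.4% of the 31245 cells that met every limit other than those on Tgfbi and Mgp.

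The 2 WT pups (pups 1 and 2) were labelled wild type and the 3 mutant pups (pups 3, 4 and 5) expressed Trpv4 p.R594H under Col2a1-Cre, which acts in cells that transcribe Col2a1 and so in the cartilage from which all members came. TRPV4 is a calcium-permeable cation channel, and this substitution activates it and causes skeletal dysplasia in people. The strain label was C57BL/6J for all pups. The sample labels give postnatal day 5 while the series text gives day 3, and every pup carried the same label. No further allele of the WT littermates is named in the labels, and each pup was 1 library.

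TGFBI is a secreted matrix protein that TGF-β induces, and its fasciclin domains bind integrins and collagens. MGP is a vitamin K-dependent protein that holds back mineralization of cartilage and vessel walls and that binds BMPs. Resting, columnar, prehypertrophic and hypertrophic chondrocytes follow each other along the growth plate, and the articular cartilage and the perichondrium border it. BMP, Wnt and TGF-β signals, held in check by secreted antagonists, set where chondrocytes rest, divide and mature.

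The 5 libraries held 84382 cell barcodes and 117746735 to 183322632 UMIs each, and the filtered cells had a median of 6000 to 9261 UMIs. Any 2 libraries shared 3 to 7 barcodes and no member barcode was shared. Xist was at 688 and 622 UMIs per 1000000 UMIs of the summed cells (CPM) in the members of mutant pups 3 and 4 and at 0.430 or less in the other 3 pups, in which the Y-linked Ddx3y stood at 183 to 210 CPM. Sex and genotype therefore partly coincided. Trpv4 itself was at 248 and 175 CPM in the members of WT pups 1 and 2 and at 177, 243 and 261 in mutant pups 3, 4 and 5, and these counts do not tell the alleles apart.

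The members numbered 727 and 626 in WT pups 1 and 2 and 793, 683 and 731 in mutant pups 3, 4 and 5. They made up 4.81% and 3.78% of the filtered cells in the WT pups and 4.14%, 3.82% and 5.29% in the mutant pups. The mean shares were 4.29% ± 0.727 (SD, n = 2) and 4.42% ± 0.774 (SD, n = 3), a difference of 0.124 percentage points with a 2-sided exact permutation p of 0.9. Among cells at the Col2a1 limit or above the shares were 7.70% ± 0.578 and 7.80% ± 1.19 (exact permutation p = 0.9). With 10 possible groupings of the pups no p could fall below 0.1, and the sign of both differences turned under 3 other limits or when single pups were left out.

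Cells of the WT pups held more UMIs, in the members and in the libraries as a whole. The median over all filtered cells was 9261 and 8521 UMIs in WT pups 1 and 2 and 6657, 6000 and 7016 in mutant pups 3, 4 and 5. The members' median was 11333 and 9990 UMIs per cell in pups 1 and 2 against 7923, 8166 and 8990 in pups 3, 4 and 5, with no overlap and a difference of -2302 UMIs (2-sided exact permutation p = 0.1, the smallest possible). A fixed Tgfbi count asks for a larger fraction of the UMIs in a shallower cell. With at least 1 Tgfbi UMI per 10,000 in its place, the share among Col2a1-rich cells was 9.84% ± 1.21 in WT and 11.3% ± 0.821 in mutant pups (2-sided exact permutation p = 0.1, the smallest possible), with no overlap between the groups. Under the same limit the share of all filtered cells was 5.50% ± 1.19 and 6.46% ± 1.16, and the groups overlapped (exact permutation p = 0.6). This limit was looser, with 4951 cells in place of 3560, and 1 UMI met it in any cell of up to 10,000 UMIs. Col2a1-rich cells had median depths of 10915 and 10296 UMIs in the WT pups and 7635.5, 6824 and 7766.5 in the mutant pups. It was therefore not free of depth, and the part of depth in these shares was not tested. When each cell was thinned to 5000 UMIs and 1 Tgfbi UMI was asked for, the mutant minus WT difference in the share of filtered cells was 1.42 percentage points (exact permutation p = 0.4), and among Col2a1-rich cells 1.53 percentage points (exact permutation p = 0.5).

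The choice of limits left no gap at either edge. Of the members 405 held exactly 3 Tgfbi UMIs, and 627 cells that met every other limit held exactly 2. Between 20 and 25 Mgp UMIs per 10,000 there were 703 members, and 984 cells with 15 to 20 fell just outside. The median member held 10, 14, 10, 7 and 8 Tgfbi UMIs in pups 1 to 5, and 35.6, 39.6, 44.3, 38.9 and 40.0 Mgp UMIs per 10,000.

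Macrophage and endothelial markers were low in the members. The summed level of 8 macrophage markers was 4.18 to 22.4 CPM, against 8266 to 9435 CPM in macrophage-marked cells of the same libraries, and 7 endothelial markers summed to 3.03 to 8.60 CPM. None of the markers in these lists was at 0 in every pup. The 6 erythroid markers summed to 10.2 to 484 CPM, and their part in the results was not tested. Muscle, Schwann and pericyte markers summed to at most 29.9, 24.01 and 31.6 CPM. Lists that share genes with cartilage or perichondrium were higher, with 6 tendon markers at 2886 to 4221 CPM, most of it Fmod, and 8 osteoblast markers at 4826 to 8728 CPM, most of it Col1a1. The 3 other given markers, Bmp7, Loxl4 and Lef1, were together detected in 17.6% to 33.4% of members per pup and in 0.163% to 0.478% of Tgfbi-negative chondrocytes of like depth. Tgfbi and Mgp themselves were fixed by the rule. None of the 3 was detected in 10.9% to 31.9% of members. On mm10 (GRCm38) Tgfbi lies at chr13:56609523-56639562 (+), Mgp at chr6:136872435-136875823 (-), Bmp7 at chr2:172868012-172940321 (-), Loxl4 at chr19:42593982-42612813 (-) and Lef1 at chr3:131110471-131224356 (+), all protein-coding.

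To place the members among chondrocytes, their UMIs were summed per pup and set beside Tgfbi-negative cells. These held no Tgfbi UMI, could have any Mgp level and met the limits on the 6 remaining rule genes. They were drawn within each pup towards the members' distribution of total UMIs (3294 cells for 3560 members). Some depth ranges held too few of them. Their median depth of 7590 to 10525 UMIs per pup was below the members' 7923 to 11333 in every pup. Because the rule used these cells' own counts, the levels that follow are a description and carry no test. Genes averaging 20 CPM or more in the higher class were compared. Of these 5639 genes, 32 (0.567%) were at least 2-fold higher in members in each of the 5 pups and 39 (0.692%) at least 2-fold lower, rule genes left out, on the log2(CPM + 5) scale. These counts depended on the settings, with 17 higher and 13 lower when 20 CPM was added in place of 5, and 49 higher and 69 lower against Tgfbi-negative cells that also met the Mgp limit. Those 1316 cells stayed shallower than the members, with median depths of 5686 to 7472 against 7923 to 11333 UMIs per pup.

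Secreted signalling proteins were among the higher genes. Bmp7, a BMP ligand, stood at 96.2, 194, 199, 105 and 117 CPM in the members of pups 1 to 5 and at 3.40, 12.3, 7.05, 9.04 and 6.90 CPM in the Tgfbi-negative cells. Every member value exceeded every comparison value, and the median log2 ratio was 3.53 (range 2.97 to 4.08). Gdf5, a ligand of the same family known from joint formation, was at 54.6, 40.5, 54.4, 80.0 and 83.7 CPM in members and at 5.17 to 7.73 CPM in the comparison cells, a median log2 ratio of 2.55. Pdgfa, which encodes a platelet-derived growth factor chain, had a median ratio of 1.83. Notum, a lipase that inactivates Wnt proteins by removing their lipid, was at 107, 187, 220, 149 and 158 CPM against 13.2 to 38.3 CPM, with a median log2 ratio of 2.56 and the narrow range of 2.38 to 2.63.

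The 25 genes of highest ratio also held some enzymes. Loxl4, a lysyl oxidase-like enzyme that crosslinks collagen and elastin, reached 195, 284, 347, 243 and 235 CPM in members of pups 1 to 5, against 17.3, 13.6, 20.1, 27.7 and 14.6 CPM in the Tgfbi-negative cells. This was the highest median log2 ratio of the genes that the rule did not use, at 3.62 (range 2.92 to 3.96). Arsi, a member of the arylsulfatase family, followed with 109 to 166 CPM against 6.58 to 9.61 CPM and a ratio of 3.55. Moxd1, a monooxygenase-like protein, had a ratio of 2.19.

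Of 19 chondrocyte transcription factor genes on a list that reached the level limit, 2 (Runx3 and Runx2) were at least 2-fold higher in every pup and none lower, with 7 ratios below 0 (the lowest -1.18) and a median of 0.24 against 0.05 over all genes. Runx3 was at 147, 173, 206, 138 and 161 CPM in members and at 13.1, 21.8, 15.3, 29.4 and 35.0 CPM in the comparison cells, a median log2 ratio of 2.73. Runx2, the factor that drives chondrocyte hypertrophy and bone formation, had a ratio of 1.54, at a mean of 222 against 72.1 CPM. Lef1, which acts with β-catenin at Wnt target genes, was at 73.0, 159, 121, 76.0 and 104 CPM against 27.5, 36.2, 29.9, 33.4 and 47.8 CPM, with a ratio of 1.26 and no overlap between the classes. Lef1 was not among the 25 genes of highest ratio, while the transcription factor genes Dlx5 (1.57) and Maf (1.53) were.

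Surface and signalling proteins were also among the 25. Ackr3, a chemokine receptor that takes up CXCL12, was the most abundant of them after Olfml3, at 253 to 357 CPM in members and 49.6 to 77.1 CPM in the comparison cells (median log2 ratio 2.21). Cadm1, a cell adhesion molecule, was at 2.16 and Prkg2, the cGMP-dependent kinase that relays natriuretic peptide signals in growth plate cartilage, at 1.88. Tspan13, a tetraspanin, was at 3.03 and the antisense transcript Dhx58os at 2.87. Clstn2, Bpifb1, Gpc1, Xlr3c, Hilpda, Olfml3, Lrrc8b and Wnk2 lay between 1.48 and 1.85. Dhx58os lies antisense to its neighbour and Xlr3c has near-identical copies, so reads of either may have been assigned to a related locus.

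**Figure D1:**
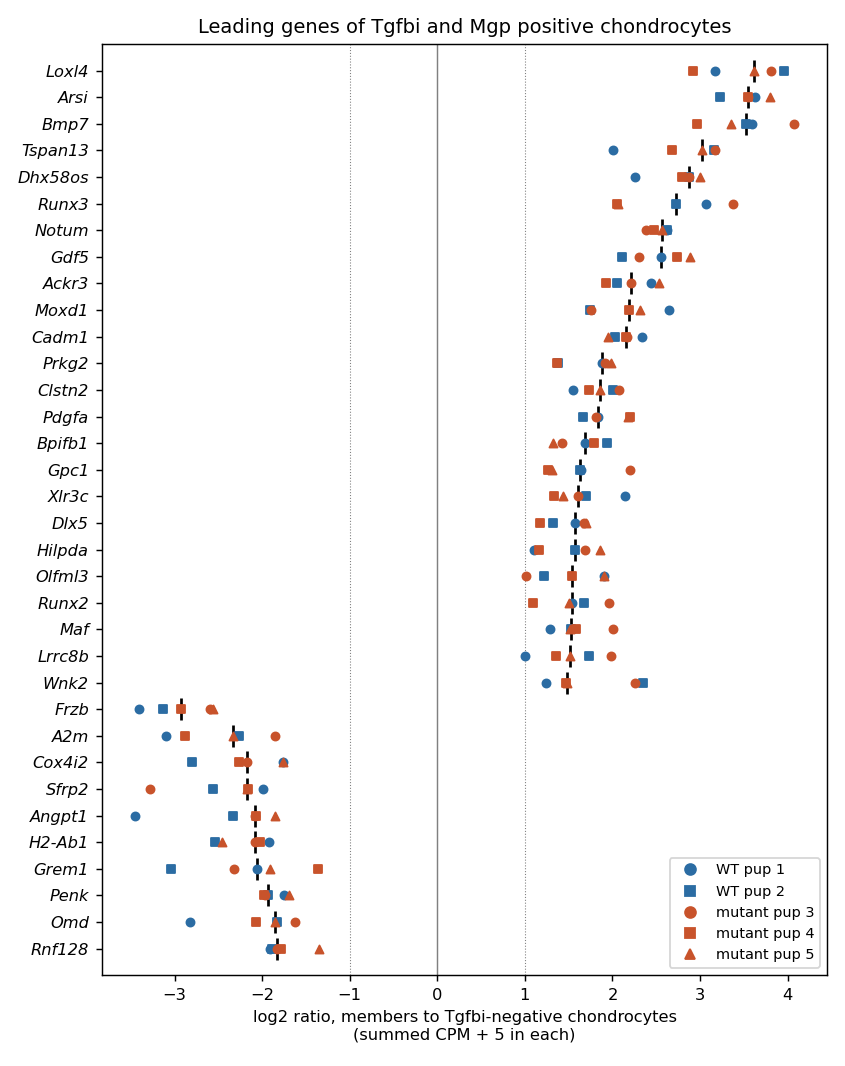
Log2 ratio of members to Tgfbi-negative chondrocytes of like depth for genes among the 25 of highest and the 10 of lowest median ratio, on the log2(CPM + 5) scale, with 1 point per pup (blue WT, orange mutant), a black bar at the median and dotted lines at 2-fold. All points of the higher genes lie at 1.00 or above, all points of the lower genes lie below -1, and WT and mutant pups are interleaved in most rows.

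Several secreted antagonists were lower in members. Frzb, a secreted Wnt-binding protein of resting and articular chondrocytes, was at 60.3, 44.1, 56.9, 46.1 and 58.5 CPM in members of pups 1 to 5 and at 687, 425, 370, 382 and 370 CPM in the Tgfbi-negative cells, the lowest ratio of all at -2.92. Sfrp2, another secreted Wnt antagonist, had a ratio of -2.17 and Grem1, a BMP antagonist, of -2.06. Penk, which encodes the opioid precursor proenkephalin, was at -1.93 and Omd, osteomodulin, at -1.85. A2m, Cox4i2, Angpt1, H2-Ab1 and Rnf128 lay between -2.34 and -1.84. Cells with at least 100 Col1a1 UMIs per 10,000 were 23.9% to 37.2% of the comparison cells and 8.95% to 15.3% of the members. Within the members Frzb, Sfrp2, Penk, Omd and Cox4i2 were higher in such cells in all 5 pups, and the part of this in the ratios was not tested.

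Genes of the BMP, Wnt and TGF-β pathways were read from lists, with 0.567% of all genes called higher and 0.692% lower as the background. In the BMP list 21 of 37 genes reached the level limit, with Bmp7 and Gdf5 called higher and Grem1 lower, and a median log2 ratio of -0.06 against 0.05 over all genes. Noggin (Nog), a BMP antagonist, was at a median ratio of -1.37 and the target genes Id1 and Id3 at 0.34 and 0.33, with pups on both sides of 0. In the Wnt list 26 of 57 genes reached the limit, with Lef1 and Notum higher, Frzb and Sfrp2 lower and a median of -0.08. The Wnt feedback gene Nkd1 was at 0.98 and Ccnd1, which encodes cyclin D1, at 1.01. In the TGF-β list 29 of 40 genes reached it, none higher and 2 lower, Ltbp1 (-1.51) and Fbn2 (-1.34), a carrier of latent TGF-β and a fibrillin of the matrix. The receptors Tgfbr2 (0.67) and Tgfbr3 (0.84) and the target Ccn2 (1.02) had ratios above 0 in every pup. The median of the TGF-β list was 0.07. Ratios above and below 0 numbered 9 and 12 in the BMP list, 12 and 14 in the Wnt list and 15 and 14 in the TGF-β list. The medians of these lists lay close to that of all genes.

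Among 15 genes known to bind TGFBI or to share its matrix, none was called. Fn1, fibronectin, was at 3123 against 1398 CPM on average, a ratio of 1.26 (range 0.76 to 1.30). Decorin (Dcn) was at -0.92, while the collagen VI genes Col6a1, Col6a2 and Col6a3 were at 0.52, 0.42 and 0.78, with the first and second below 0 in pups 2 and 3. Of 25 collagen crosslinking and folding genes, Loxl4 was the single higher and Lox the single lower call, at 30.2 against 96.1 CPM and a ratio of -1.43. Of the mineral control genes Nt5e, which makes adenosine at the cell surface, was at 1.05, Spp1, osteopontin, at 0.90 and the pyrophosphate genes Enpp1 and Ank at 0.35 and 0.44. Ibsp, bone sialoprotein, was at -1.36, and Vkorc1 and Ggcx of the vitamin K cycle were at -0.29 and -0.03.

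All 22 cartilage matrix genes reached the level limit and none was called, with a median ratio of 0.06. They ranged from -0.96 for Fibin to 1.20 for Prelp, with 13 above 0 and 9 below, and Acan, which encodes aggrecan, and Col9a1 were at 0.10 and 0.00. Of 8 resting chondrocyte markers 7 were below 0, and Grem1 and Apoe were called lower. The prehypertrophic markers split, with Runx2 higher, Cd200 lower, Panx3 at 1.15 and Mef2c at -0.79. Of 9 articular markers 6 were above 0 and 3 below, with a median of 0.18, and Gdf5 was called higher. Columnar markers numbered 10, with 4 above 0, 6 below, a median of -0.06 and none called. Perichondrial Col1a1 and Col1a2 were called lower, Col1a1 at a mean of 6578 against 21846 CPM, and 12 perichondrial markers summed to 13145 to 21333 CPM in members and 39361 to 57024 CPM in the comparison cells. Of 18 dissociation response genes 12 were above 0 and 6 below, from -0.55 to 2.19. None of the 18 was called, and their median was 0.16.

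Detection was also compared at equal depth. After every cell was thinned to 5000 UMIs, which left out 266 members, Loxl4 was found in 37.0% to 60.4% of members per pup and in 5.11% to 8.71% of Tgfbi-negative cells. Bmp7 was found in 28.7% to 47.9% and 2.08% to 4.01%, Notum in 29.2% to 45.0% and 5.44% to 11.6%, and Lef1 in 23.3% to 47.3% and at most 17.6%. Without thinning the member shares were 51.6% to 69.9%, 43.1% to 63.6%, 44.2% to 57.0% and 39.1% to 62.1%. In macrophage-marked cells, which should lack all 4 genes and had median depths of 6415 to 9596 UMIs, at most 2.12% of thinned cells per pup held a UMI of any of them. Runx3 was detected in 34.5% to 47.8% of members but also in 10.6% to 30.2% of macrophage-marked cells.

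Co-detection was then described for Bmp7, Loxl4, Notum, Lef1 and Gdf5. Among thinned members with a Bmp7 UMI 63.7% to 77.0% per pup also held Loxl4, against 24.9% to 46.8% of members without Bmp7. Notum was found in 52.4% to 57.9% of Bmp7-positive and 19.9% to 34.4% of Bmp7-negative members. For Lef1 the same shares were 30.4% to 52.4% and 17.9% to 42.6%. These ranges overlapped between pups, but within each pup Lef1 was more frequent with Bmp7 than without it. Lef1 and Gdf5 showed no common direction. Lef1 was found in 20.8% of Gdf5-positive and 27.9% of Gdf5-negative members of pup 4 and in 28.4% and 33.9% in pup 5, while in the other 3 pups it was more frequent with Gdf5. Depth was equal by design, but Tgfbi and Mgp counts themselves varied among these cells.

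A second comparison asked which of the genes went with Mgp. The 9587 chondrocytes that met the Tgfbi limit but not the Mgp limit were deeper, with median depths of 9541 to 14343 UMIs, and were set against members per pup on the same scale. Of 5645 genes, 32 (0.567%) were at least 2-fold higher in members in every pup and 32 (0.567%) at least 2-fold lower. Of the 32 genes higher against Tgfbi-negative cells, 19 were also higher here, among them Loxl4 (2.17), Arsi (2.53), Bmp7 (2.07), Gdf5 (2.23), Notum (2.98) and Pdgfa (1.78). Both comparisons share the members, so this overlap is a description. Runx3 at 0.84 and Runx2 at 0.22 were not among them, and Lef1 was at 1.03 without being 2-fold higher in every pup.

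Other genes distinguished members from Mgp-low cells, and these were picked after their values were seen. Hspa1b, a heat shock protein gene, was at 254 against 50.2 CPM (2.29), and Hspa1a and Hsph1 were at 1.51 and 1.43. Members had a higher median mitochondrial share of UMIs in every pup, at 4.76% to 5.19% against 3.90% to 4.35% in Mgp-low cells. In Tgfbi-negative cells of like depth that share was 3.63% to 4.33%, and its part in the levels was not tested. Fn1 was at 3123 against 1248 CPM (1.22) and Clu at 1.39. Lower in members were the cytokine gene Il17b (-2.64), Nog (-1.94) and Cited2 (-2.23), a transcriptional co-regulator. Pgk1 (-1.34), Ldha (-1.25) and Pgam1 (-1.25), which encode glycolytic enzymes, the lactate exporter gene Slc16a3 (-1.56), Bnip3 (-1.49) and the oxygen-sensing prolyl hydroxylase gene Egln1 (-1.42) were lower too. H2-Ab1 was at -2.67, the lowest of all.

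The levels were then followed with the Tgfbi count itself, among cells at the Mgp limit or above. Eligible chondrocytes at the Mgp limit or above with 5000 to 20000 UMIs were split by Tgfbi count, with 101 to 342 cells per pup and bin, and their median depth rose with the bin, from 6163 to 7772 UMIs at 0 Tgfbi UMIs to 9878 to 12521 at 12 or more. Bmp7 averaged 17.2, 38.0, 74.6, 133 and 185 CPM at 0, 1 to 2, 3 to 5, 6 to 11 and 12 or more Tgfbi UMIs. Loxl4 averaged 53.7, 91.5, 155, 251 and 342 CPM and Runx3 17.2, 41.1, 76.7, 153 and 202 CPM. In contrast Frzb fell from 273 to 198, 111, 49.3 and 28.6 CPM.

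Notum and Lef1 behaved otherwise. Notum averaged 118, 131, 169, 144 and 194 CPM over the same bins and Lef1 81.7, 87.7, 110, 108 and 116 CPM, so both were already high in Mgp-positive cells that held no Tgfbi UMI. At 0 Tgfbi UMIs Notum was at 65.6 to 172 CPM per pup in Mgp-positive cells, against 13.2 to 38.3 CPM in Tgfbi-negative cells of any Mgp level. Mgp itself rose along the bins, from a mean of 3359 to 5638 CPM, as did depth, and the part of either was not tested.

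**Figure D2:**
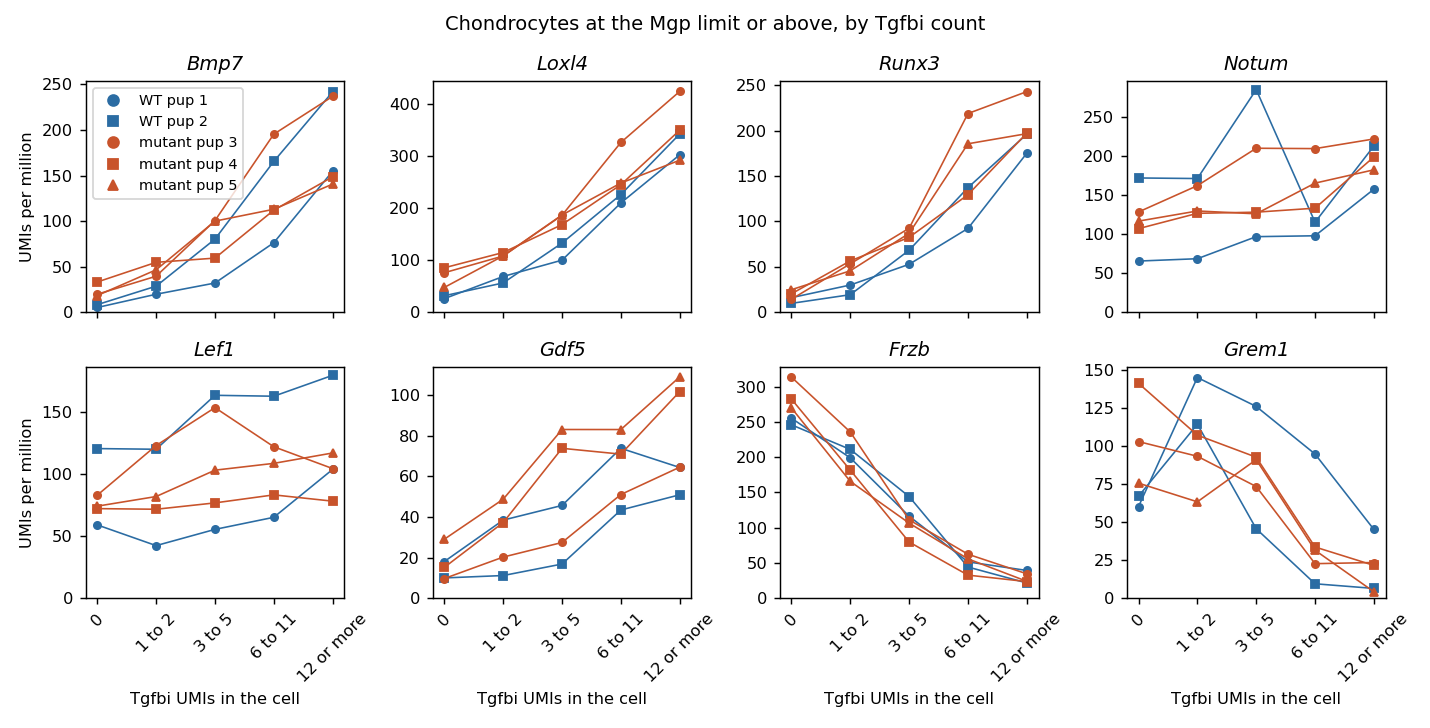
Levels of 8 genes in CPM (linear axes) in chondrocytes at or above the Mgp limit with 5000 to 20000 UMIs, by the number of Tgfbi UMIs in the cell, with 1 line per pup (blue WT, orange mutant). Bmp7, Loxl4 and Runx3 rise from the first to the last bin in all 5 pups, Notum and Lef1 start high, and Frzb falls in all 5 pups.

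Other classes of the same libraries showed where some of these genes were also expressed. Loxl4 was at 277 to 554 CPM in Col10a1-high cells and 132 to 241 CPM in Ihh-expressing cells, so it was not particular to the members. Runx3 was at 140 to 176 CPM in Ihh-expressing cells and 138 to 206 CPM in members, ranges that overlapped. Bmp7 was at 96.2 to 199 CPM in members and at no more than 45.4 CPM in the Ihh-expressing, cycling, Col10a1-high or Prg4-high cells. Notum was at 107 to 220 CPM in members and at 48.9 to 72.8 CPM in Prg4-high cells, with Ihh-expressing cells at 7.48 to 38.9 CPM. Lef1 was at 73.0 to 159 CPM in members and 27.0 to 59.2 CPM in cycling cells. Cells at the Mgp limit without a Tgfbi UMI, in which Notum and Lef1 were already high, were not among these classes.

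**Figure D3:**
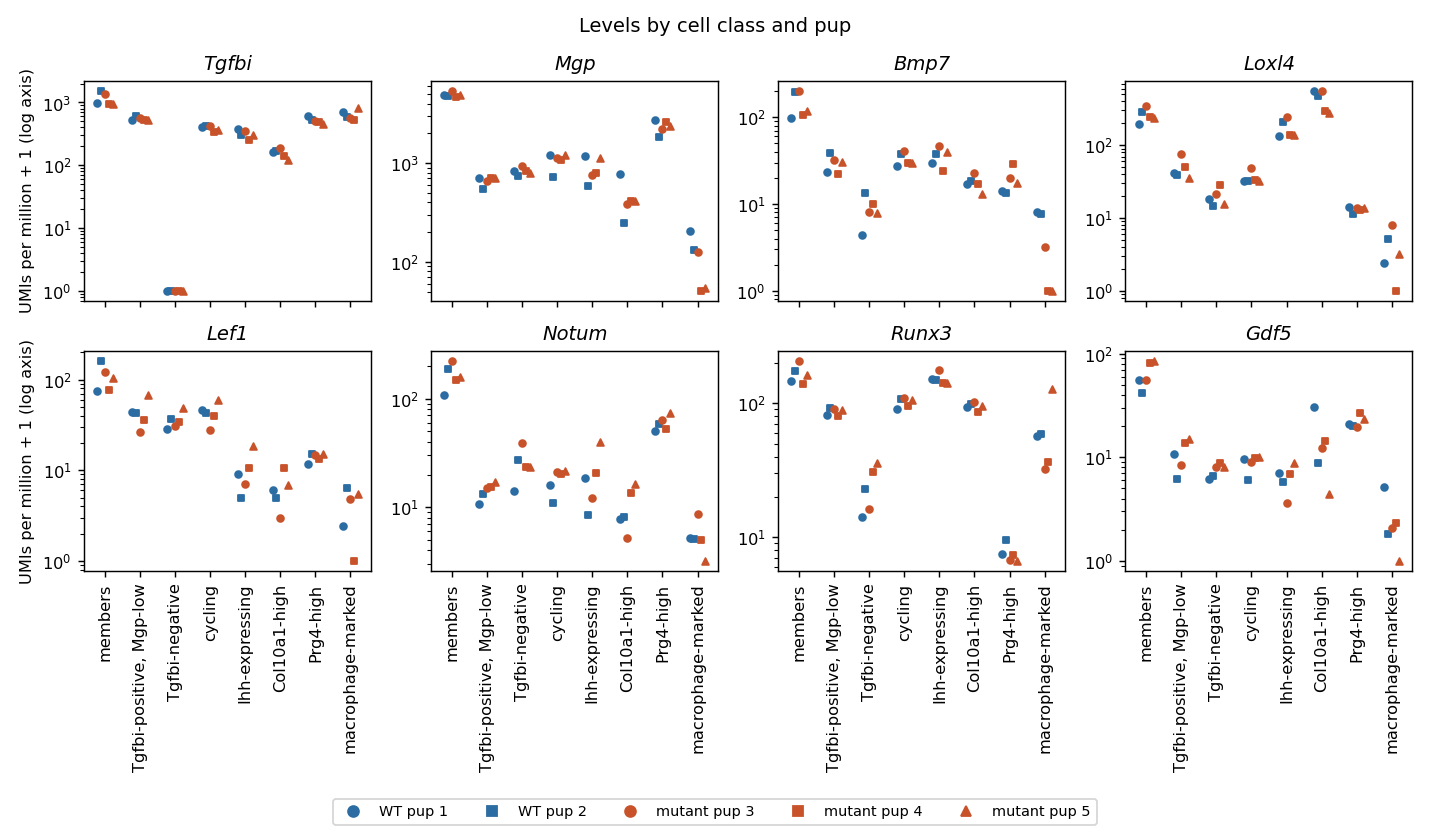
Levels of 8 genes in 8 cell classes as CPM plus 1 on log axes, with 1 point per pup (blue WT, orange mutant). Among the classes drawn, Bmp7, Notum, Lef1 and Gdf5 are highest in the members, and Loxl4 is higher in Col10a1-high cells. Runx3 is similar in Ihh-expressing cells, and Tgfbi in Tgfbi-negative cells is 0 by construction. Tgfbi-negative cells at the Mgp limit are not drawn as a class of their own.

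Upstream sequence from RefSeq's promoter table for GRCm38.p6 is shown for Tgfbi, which defines the cells, for the given markers Loxl4 and Lef1, and for Runx3, a leading transcription factor gene whose level followed the Tgfbi count. Each stretch runs 5′ to 3′ on the gene's strand and ends before the gene's first annotated base in GENCODE M21, and capitals mark RUNX (TGTGGT) and SMAD (CAGAC) letters on either strand. Tgfbi upstream is chr13:56609336-56609522 (+), Loxl4 is chr19:42612814-42613056 (-), Lef1 is chr3:131110047-131110296 (+) and Runx3 is chr4:135120395-135120644 (+). Lef1 and Runx3 have several entries in the table, of which the most upstream is shown. The other Runx3 entry, chr4:135152295-135152544 (+), held no RUNX letters, and the 4 Lef1 entries held 0 to 2 SMAD matches.
Tgfbi: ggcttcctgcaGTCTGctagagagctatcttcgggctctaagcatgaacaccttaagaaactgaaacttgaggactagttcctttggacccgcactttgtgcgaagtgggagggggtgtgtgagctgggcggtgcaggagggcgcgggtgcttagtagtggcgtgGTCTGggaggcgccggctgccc
Loxl4: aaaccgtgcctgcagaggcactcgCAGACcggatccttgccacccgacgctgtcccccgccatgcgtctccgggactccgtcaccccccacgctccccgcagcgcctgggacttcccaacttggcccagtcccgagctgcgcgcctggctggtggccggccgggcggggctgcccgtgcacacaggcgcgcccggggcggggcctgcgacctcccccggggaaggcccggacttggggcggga
Lef1: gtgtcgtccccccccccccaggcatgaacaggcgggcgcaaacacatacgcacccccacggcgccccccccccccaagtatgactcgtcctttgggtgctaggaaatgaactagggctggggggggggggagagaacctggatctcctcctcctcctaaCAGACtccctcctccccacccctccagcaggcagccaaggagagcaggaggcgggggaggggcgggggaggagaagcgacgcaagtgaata
Runx3: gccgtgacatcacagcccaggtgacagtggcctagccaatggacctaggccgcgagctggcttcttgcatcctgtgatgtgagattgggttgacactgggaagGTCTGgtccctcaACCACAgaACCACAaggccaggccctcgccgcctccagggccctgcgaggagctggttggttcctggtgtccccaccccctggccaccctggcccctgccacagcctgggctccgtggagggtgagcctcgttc

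Among the 14 of 25 leading higher genes with an entry, searched over 250 bases before the start on both strands, 3 (Runx3, Ackr3 and Runx2) held TGTGGT, against 15.9% of all 27025 genes with an entry and 11.3% of the 4488 at 20 CPM or more. CAGAC was found in 5 of the 14, against 45.8% and 43.7%. CTTTGAT, read here as a TCF/LEF core, was found in none, against 3.72% and 2.63%. A gene with several entries was counted as holding the letters where any of them did, so for Runx3 the RUNX count rests on 1 of its 2 entries. A match is a description of letters, and no match speaks only of this window.

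Within the members the cells varied most in Col1a1, the fibrillar collagen of bone and perichondrium. Over 2394 genes with at least 0.5 UMIs per member, the median variance of Pearson residuals was 1.35, while for Col1a1 it was 356 to 568 per pup. Col1a2, Col2a1, Fos, Mt2, Zfp36, Egr1, Tmsb4x, Spp1, Col3a1, Matn1, H19, Hspa5, Dlk1 and Jun completed the 15 most variable genes by this measure. It is scaled to Poisson sampling and grows with a gene's level where cells differ beyond it, so abundant genes rank high. Col2a1, a rule gene, was at 907 UMIs per member and H19 at 154 (median over pups). Fos, Zfp36, Egr1 and Jun are early response genes that dissociation can induce, Mt2 is a metallothionein, and Hspa5 is a chaperone of the endoplasmic reticulum.

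**Figure D4:**
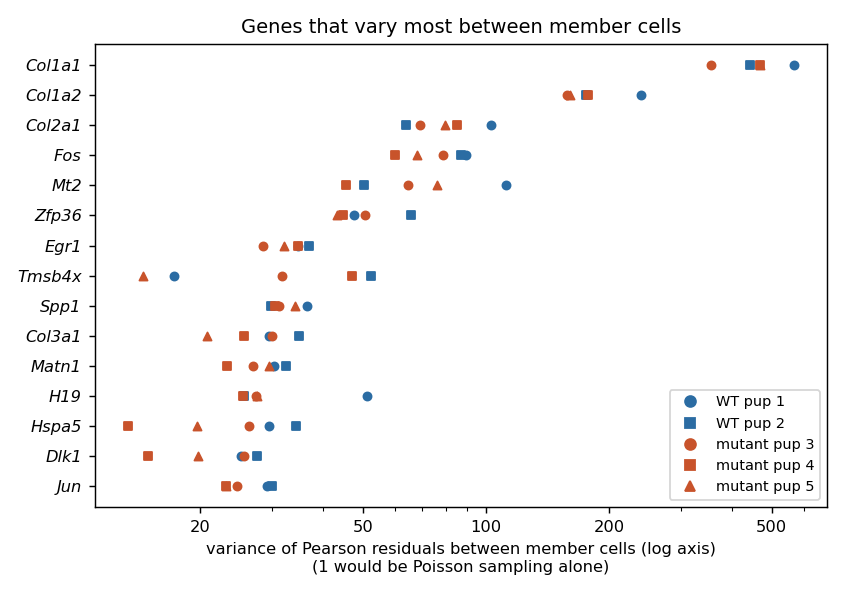
Variance of Pearson residuals between member cells for the 15 genes of highest median, on a log axis, with 1 point per pup (blue WT, orange mutant). Col1a1 lies between 356 and 568, above Col1a2 in each pup, and all 15 genes exceed the median of 1.35 over 2394 genes.

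Col1a1 was spread over a long tail. The median member held 8.16, 8.41, 9.38, 10.2 and 6.58 Col1a1 UMIs per 10,000 in pups 1 to 5, while the 90th percentile was 244, 79.1, 212, 224 and 129. The 451 members with at least 100 Col1a1 UMIs per 10,000, 8.95% to 15.3% per pup, held 78.7% to 88.3% of the Col1a1 UMIs. In Tgfbi-negative chondrocytes of like depth 23.9% to 37.2% of cells passed that mark.

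Col1a1-rich members differed from the others within each pup. Bmp7 was lower in all 5 pups, at 43.7 to 108 against 106 to 215 CPM, and so were Runx3 (46.4 to 84.0 against 151 to 228 CPM), Acan, Matn1 and Panx3. Sfrp2 was higher in all 5 pups, at 50.6 to 123 against 6.15 to 10.9 CPM, as were Wif1, Penk, Frzb and Mt2. These splits used the cells' own counts and carry no test. Without the Col1a1-rich members, 36 genes were at least 2-fold higher and 76 at least 2-fold lower than in Tgfbi-negative cells. The Tgfbi-negative cells kept their own Col1a1-rich cells here, so the 2 classes were not evened out in Col1a1. This alternative was chosen after seeing the data.

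The study compared mutant with WT pups, and this was tested in the members on UMIs summed per pup with edgeR's quasi-likelihood test. Of 12595 genes, 0 (0.0%) passed a Benjamini-Hochberg adjusted p of 0.05 and the smallest adjusted p was 0.999. An unadjusted p under 0.05 was found for 364 genes, and DESeq2 called 0 with 161 at an unadjusted p under 0.05. The pups of the groups did not overlap for 2258 genes (17.9%).

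None of the 35 leading genes, nor Lef1, passed the adjusted threshold by genotype. Loxl4 was at a log2 fold change of mutant over WT of 0.24 ± 0.18 (SE), Bmp7 at -0.00 ± 0.36, Lef1 at -0.15 ± 0.32, Notum at 0.30 ± 0.23 and Runx3 at 0.11 ± 0.15. Gdf5 had the largest of these, 0.65 ± 0.25 (edgeR unadjusted p = 0.034, adjusted p = 0.999), with the WT pups at 55.6 and 38.6 and the mutant pups at 52.7, 83.6 and 86.3 normalized CPM, so that the groups overlapped. Of the 35 leading genes 6 had an unadjusted p under 0.05, against 2.89% of all genes tested, and these were Dhx58os (0.58), Gdf5, Pdgfa (0.37), Dlx5 (0.59) and Maf (0.50), all with estimates above 0, and Omd (-0.42). The groups did not overlap for 6 of the 35, against 17.9% of all genes. The fold change of Trpv4 was 0.14 ± 0.24.

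The 10 genes of at least 20 CPM with the smallest unadjusted p are given as values, since none passed the adjusted threshold. Egr2, an early response transcription factor, was at 23.98 and 31.0 normalized CPM in WT pups 1 and 2 and at 16.2, 15.3 and 16.1 in mutant pups 3, 4 and 5, a log2 fold change of -0.78 ± 0.16 (SE). Fos was at 5559 and 6260 against 3250, 3767 and 4701 (-0.60 ± 0.15). Itga5, the fibronectin receptor subunit α5, was at 93.8 and 66.2 against 49.8, 51.3 and 51.3 (-0.66 ± 0.15), and every one of these values was higher in WT pups than in any mutant pup. Tubb4b (-0.54), Mt1 (-0.55) and B3gnt9 (-0.48) were the other lower genes.

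Panx3, a channel-forming protein of prehypertrophic chondrocytes and osteoblasts, was at 134 and 122 normalized CPM in WT pups 1 and 2 and at 183, 175 and 172 in the mutant pups, a log2 fold change of 0.47 ± 0.11 (SE). Dlx5, which acts in chondrocyte maturation, was at 24.5 and 21.7 against 31.3, 38.0 and 35.7 (0.59 ± 0.14). Flrt2 (0.54) and Snrpf (0.50) were the other higher genes, and all 10 genes did not overlap between groups, which their selection by p favours. Their adjusted p was 0.999 each with edgeR. With no filter on low counts 21 genes were called, 4 higher and 17 lower, and Egr2, Fos, Itga5 and Gdf5 were among them. Itga5 was also called without WT pup 2.

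**Figure D5:**
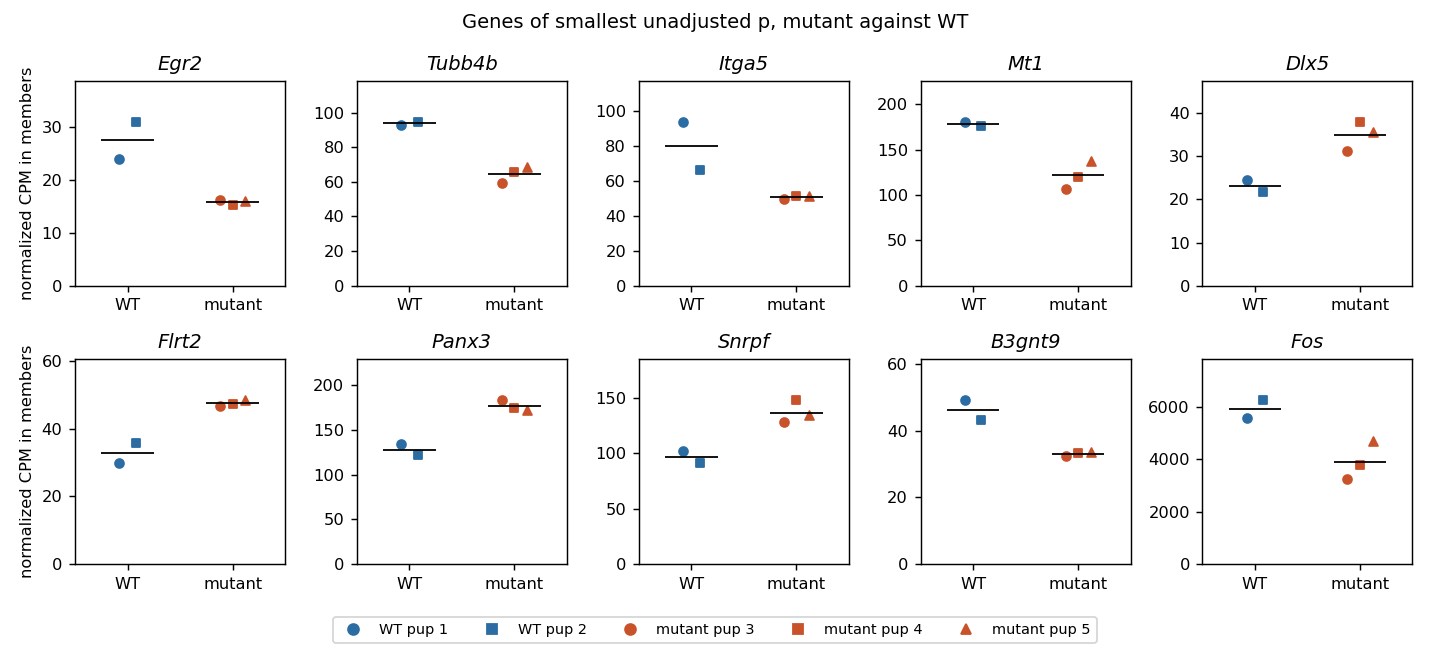
Normalized CPM in members of the 10 genes with the smallest unadjusted p between genotypes, with 1 point per pup, WT pups in blue, mutant pups in orange, linear axes from 0 and a bar at each group's mean. The groups do not overlap for any of the 10, and none passed an adjusted p of 0.05.

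Gene lists were read the same way. Of 18 dissociation response genes, 15 had a lower estimate in the mutant pups, with a median log2 fold change of -0.24 against -0.00 over all genes, and 6 had an unadjusted p under 0.05, against 2.89% of all genes, among them Egr1 (-0.58), Btg2 (-0.83), Ier3 (-0.47) and Nr4a1 (-0.45). Of 10 prehypertrophic markers, all had an estimate above 0, with a median of 0.23, where 6188 of all 12595 genes did. The Ihh limit of the rule is a fixed count, which allows a larger fraction of Ihh UMIs in a shallower cell. Mutant members were shallower, and the part of this in these estimates, Panx3 among them, was not tested. Of the 47 fitted Wnt genes 30 were above 0, of 39 TGF-β genes 24 and of 33 BMP genes 19, with medians of 0.04, 0.03 and 0.04. No gene of these lists passed the adjusted threshold. The summed level of the 18 dissociation response genes in members was 19606 and 26388 CPM in WT pups 1 and 2 and 16638, 16081 and 19300 CPM in the mutant pups, whose libraries were also shallower, and the part of either in the result was not tested. The 4 fitted erythroid genes all had a lower estimate in the mutant pups, and none passed the adjusted threshold. Their summed level was 106 and 484 CPM in the WT pups and 167, 10.2 and 14.4 CPM in the mutant pups, so the groups overlapped.

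Other fits gave calls. With all pups kept, 1 gene was called with at least 2 Tgfbi UMIs, 1 with at least 1 Tgfbi UMI per 10,000 and 2 with an Mgp limit of 10 per 10,000, beside the 21 with no filter. Where 1 WT pup remained, it was assumed to vary like the other pups. Without WT pup 2, 12 genes were called, among them the granulocyte genes S100a9, Retnlg and Ngp, the leading gene Dhx58os, and Csrp1, which was at 5.62 normalized CPM in WT pup 1 and 46.7 to 57.3 in the other pups. Without WT pup 1, 2 genes were called, Btg2 and Mmp3. Without mutant pup 5, the 5 called genes were Xist, Ddx3y, Eif2s3y, Kdm5d and Uty, in which the remaining mutant pups differed from the WT pups by sex. Without mutant pups 3 and 4 both, pup 5 alone stood for the mutants and was assumed to vary like the WT pups, and 0 genes were called, with 198 at an unadjusted p under 0.05, which says nothing of the part of sex.

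The genotype effect was also compared between members and Tgfbi-negative chondrocytes of the same pups, with pup as a block. Of 13175 genes, 0 had an interaction past an adjusted p of 0.05 in edgeR, and 340 had an unadjusted p under 0.05. The difference was estimated in a joint fit of both classes and need not equal that of the separate fits. For Panx3 the log2 fold change was 0.47 in members and 1.42 ± 0.77 in Tgfbi-negative cells in separate fits, and the joint fit gave a difference of -0.78 ± 0.73 (SE). For Fos the difference was -0.34 ± 0.18 and for Itga5 -0.42 ± 0.26. No gene was shown to respond differently in the members.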

How the data were processed

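Single-cell libraries (BD Rhapsody) of 5 pups were deposited as UMI counts per gene and cell, 1 sparse matrix per pup. Per the labels and methods, the authors' pipeline demultiplexed the reads and counted UMIs per barcode, and the submitters' processing notes name build mm10. The pipeline version is not given in the sources used here. Libraries held 117746735 to 183322632 UMIs. Members and gene lists were chosen with earlier results of these data known. No doublet caller was run, and 168 members held 3 or more UMIs of macrophage, endothelial, muscle or Schwann markers. No columns of other samples were present.

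Counts were summed per pup and class. Genotype was tested with edgeR 4.0.16 (R 4.3.3; TMM, filterByExpr, glmQLFit robust, glmQLFTest; the 8 rule genes left out of the calls; Benjamini-Hochberg at 0.05; DESeq2 1.42.0 as an alternative) and checked on simulated counts. The outcome on simulated counts is not given here. Shares and depth were compared by 2-sided exact permutation tests over pups (Python 3.11.15). Levels between classes were described as log2(CPM + 5) with genes of at least 20 CPM in 1 class. The pup is the replicate, and replicates are separate animals. Gene coordinates came from GENCODE M21 (GRCm38, the assembly of mm10) and upstream sequence from RefSeq. Named genes were the rule genes, the 5 given markers and listed genes, the 25 highest and 10 lowest by median log2 ratio with at least 2-fold in each pup, the 10 of smallest p between genotypes, and the 15 most variable genes. A leading gene is not reported here. Alternatives changed the limits, the normalization, the filter, the pseudocount, the comparison cells and the pups. Cells with fewer than 5000 UMIs were left out where cells were thinned.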

Additional observations from a re-analysis of the deposited data

How the results depend on the processing

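Of 391 values of leading genes under other settings 320 moved by less than the spread between pups, 71 moved by more and 0 changed direction. These genes differed at least 2-fold the same way in each pup. Leaving out a pup or changing the pseudocount therefore could not turn their direction, and those settings do not bear on it. Genes called between genotypes numbered 0 in the fit reported and 21 (4 higher, 17 lower in mutants) with no filter on low counts, 1 with at least 2 Tgfbi UMIs, 1 with at least 1 Tgfbi UMI per 10,000 and 2 with an Mgp limit of 10 per 10,000, and 0 to 12 with 1 pup left out. The calls under the looser limits were the granulocyte genes Retnlg and S100a9. The interaction gave 0 to 1 with 1 pup left out. The cause of these changes was not tested. Where 1 WT pup remained, that lone pup was assumed to vary like the others. The count of genes that differed 2-fold between classes was 71, and 118 against Mgp-positive Tgfbi-negative cells, which were shallower than the members. It was 30 with 20 CPM added and 75 to 94 with 1 pup left out. With Col1a1-rich cells taken out of the members only (added after seeing the data) it was 112. The mutant minus WT difference in the share of all filtered cells changed sign to -0.204 percentage points with at least 5 Tgfbi UMIs, -0.560 with an Mgp limit of 10 and -0.426 with a mitochondrial limit of 5%, and ran from -0.390 to 0.638 with 1 pup left out. Among Col2a1-rich cells it was -0.476, -1.30 and -0.376 under the same limits and ran from -0.565 to 0.588 with 1 pup left out. The depth difference ran from -2973 to -1630 UMIs with 1 pup left out and did not change direction under the settings run. No paired analysis was possible because the genotypes share no pup numbers. With 2 and 3 pups, no exact p could fall below 0.1.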
